A study of Mus musculus with 12 samples.

Results

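Interferon-induced genes, a set of 40 listed symbols, were followed in mouse ear skin. All 40 were found among the 23234 gene symbols of each library. The members were taken by symbol from a list, which was drawn up with earlier results of these data known, and were placed in 7 groups by role: 7 oligoadenylate synthetases, 5 signalling factors with their inhibitor, 5 RNA and DNA sensors, 11 antiviral effectors, 4 inducible GTPases, 3 antigen processing genes and 5 others. RNA of whole ear skin was sequenced in 12 libraries, 3 in each of 4 groups, from mice aged 8 to 12 weeks. Wild type C57BL/6J mice gave 3 groups: ears left untreated (WT_untreated), ears given phosphate-buffered saline (WT_PBS), and ears given 100 mg of Oxarol (WT_Oxarol), an ointment that holds 2.5 µg of maxacalcitol, an analogue of active vitamin D3. The last group got the same ointment and carried the label K5-Cre;VDR f/f, in which a keratin 5 promoter drives Cre recombinase in keratinocytes and Vdr, the gene of the vitamin D receptor, is the target; it is called VDRcKO_Oxarol after that label. Treated ears were collected 1 day after application. No K5-Cre;VDR f/f ears without ointment and no mice with Cre alone were among the samples, so the genotype cannot be told apart from a response of that genotype to the ointment. PBS is not the base of the ointment.

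Type I and type III interferons act through receptors that use the kinases Jak1 and Tyk2, and Stat2 and Irf9 then carry the signal to the interferon-stimulated response element (ISRE) in the promoters of antiviral genes. Interferon gamma acts at a second element, the gamma-activated site (GAS), in genes such as Irf1 and the guanylate-binding proteins. In skin, keratinocytes, fibroblasts, endothelium and immune cells all respond, and a low level of these genes is present without infection.

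The 2 elements were looked for in the promoters of the members, which were listed by symbol and not by these elements. RefSeq promoter windows (build GRCm38.p6, 250 bases before to 50 after the annotated start) were matched by symbol for 32 of the 40 members, in 39 windows. The ISRE core, searched as GAAA, any 2 bases and GAAA on both strands with overlapping matches allowed, was found for 18 of the 32 members (56.2%), against 1079 of all 27025 genes (3.99%). The GAS core, searched as TTC, any 3 bases and GAA on both strands, was found for 10 of the 32 (31.2%), against 9.55% of all genes. The guanylate-binding members Gbp2 and Gbp3 held the ISRE core and no GAS core in these windows. Among the 8 members that rose in VDRcKO_Oxarol against WT_Oxarol (below), 7 had a window, and 3 of these held the ISRE core (Oas1a, Oas1g and Apol9a). Among the other 32 members, 25 had a window, and 15 held the ISRE core. A match describes letters in a window, not a bound site. The bases before the start are shown for these 3 members and for a textbook example of each element, Isg15 and Irf1, 5′ to 3′ on the gene's strand, with the ISRE core (the GAS core for Irf1) in capitals.
Oas1a (chr5:120907526-120907675, minus strand, 150 bases): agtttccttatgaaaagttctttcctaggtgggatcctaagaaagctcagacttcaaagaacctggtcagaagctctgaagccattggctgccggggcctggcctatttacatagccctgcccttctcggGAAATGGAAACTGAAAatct
Oas1g (chr5:120887614-120887763, minus strand, 150 bases): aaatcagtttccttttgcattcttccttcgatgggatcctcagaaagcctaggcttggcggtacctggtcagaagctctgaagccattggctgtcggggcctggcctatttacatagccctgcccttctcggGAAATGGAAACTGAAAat
Apol9a (chr15:77411035-77411184, minus strand, 150 bases): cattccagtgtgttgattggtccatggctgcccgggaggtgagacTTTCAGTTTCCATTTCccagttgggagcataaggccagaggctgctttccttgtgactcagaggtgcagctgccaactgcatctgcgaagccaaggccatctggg
Isg15 (chr4:156200819-156200968, minus strand, 150 bases): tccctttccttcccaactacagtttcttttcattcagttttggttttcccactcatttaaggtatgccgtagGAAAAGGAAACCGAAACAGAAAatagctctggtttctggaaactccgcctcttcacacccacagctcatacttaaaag
Irf1 (chr11:53769864-53770013, plus strand, 150 bases): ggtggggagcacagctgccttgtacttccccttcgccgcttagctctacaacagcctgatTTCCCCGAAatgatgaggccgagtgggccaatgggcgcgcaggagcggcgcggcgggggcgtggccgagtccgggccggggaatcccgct
The matches of Oas1a and Oas1g overlapped and carried the same letters, and the full windows of these neighbouring paralogs were identical at 85.3% of 306 aligned positions. Isg15 held 3 overlapping matches in a row. Psmb9 and Tap1, which face away from each other, shared 275 bases of their windows, in which neither core was found.

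Values are FPKM, which are fragments per transcript length and library size, and differences are given on the log2(FPKM + 1) scale with the standard error (SE) and the adjusted p of limma, a linear model fitted over all genes; this scale understates changes of low genes. A member is said to rise or fall where the adjusted p is under 0.05. Of the 40 members, 35 reached 1 FPKM in at least 3 libraries and were tested; Oas2, Mx1, Mx2, Rsad2 and Ifi44 were not. Low values rest on few reads. Taken as the smallest whole numbers that fit the steps between libraries, the Oasl1 values came from 3 to 50 reads, and the 3 VDRcKO_Oxarol libraries held 0.0403, 0.0477 and 0.0591 of the reads of WT_PBS replicate 3, the deepest.

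The libraries were first checked against their labels. Vdr stood at 23.6, 25.0 and 18.0 FPKM in VDRcKO_Oxarol, above the 10.1 FPKM of the highest wild type library, which goes against the label. Since undeleted exons and cells that lack Cre contribute to a gene-level value, the deletion itself remains unchecked. Cyp24a1, a standard target of the receptor, followed the labels, with 66.2, 599 and 458 FPKM in WT_Oxarol and at most 0.271 in VDRcKO_Oxarol. Keratinocyte markers were abundant in all 12 libraries, with summed levels between 6570 and 10000 FPKM. VDRcKO_Oxarol replicate 1 stood apart: it had the highest value of the 12 libraries for 31 of the 40 members, against 20.0% of all genes tested. WT_untreated replicate 3 was the highest of its group for 31 members, against 32.2% of all genes. The counts of members that rose are therefore also given without one or the other.

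**Figure D1:**
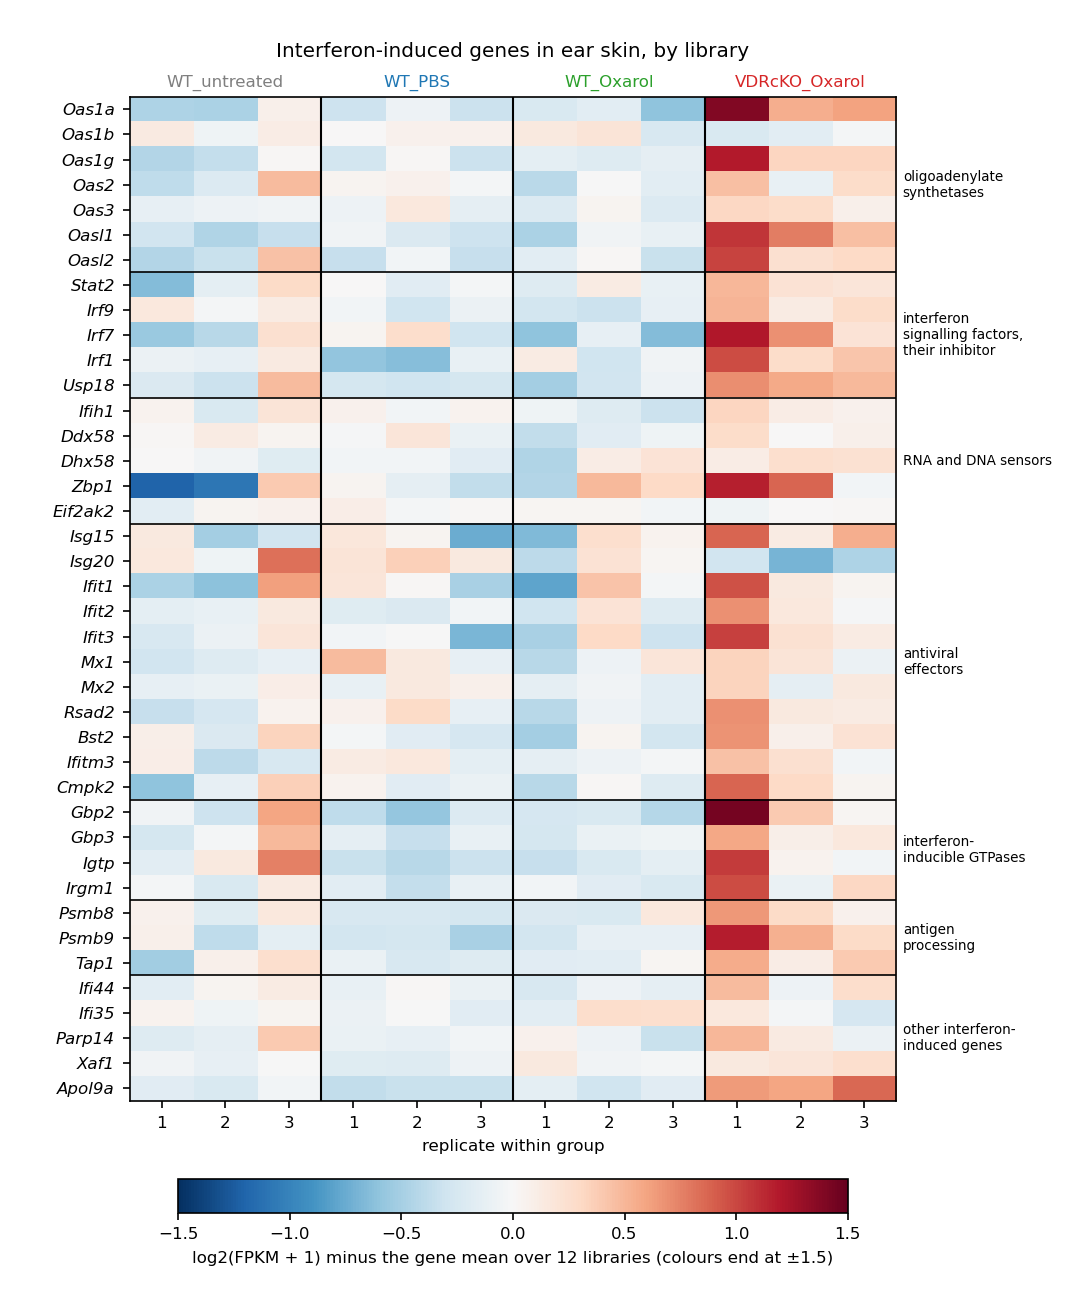
Level of each of the 40 members in each of the 12 libraries, as the difference in log2(FPKM + 1) from the member's own mean over the libraries, with members in rows by role. VDRcKO_Oxarol replicate 1 is the highest library for 31 members, and WT_untreated replicate 3 is the highest of its group for 31.

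Under the ointment, interferon-induced genes were higher in VDRcKO_Oxarol than in WT_Oxarol. Of the 35 members tested, 8 rose and 0 fell, where 8.71% of all 14059 genes tested rose and 4.43% fell. The members that rose were Oas1a, Oas1g, Oasl1, Irf7, Irf9, Usp18, Psmb9 and Apol9a. The change was above 0 for 31 of the 35, against 60.0% of all genes, and its median was 0.55, against 0.08 over all genes, with a range from -0.44 for Isg20 to 1.17 for Oas1a. In 20 of the 35 all VDRcKO_Oxarol libraries lay above all WT_Oxarol libraries, against 27.9% of all genes, and in 0 below, against 14.3%. A further limit is that 5 members (Oas1g, Oas3, Oasl1, Parp14 and Apol9a) passed the level filter only with the help of the VDRcKO_Oxarol libraries; of the 30 that passed in wild type alone, 5 rose, against 8.19% of such genes, with a median change of 0.53. Without VDRcKO_Oxarol replicate 1 the median change was 0.30, and 3 members (Oas1a, Oasl1 and Apol9a) rose; these 3 were also the ones without WT_Oxarol replicate 2, and 4 or 5 rose without VDRcKO_Oxarol replicate 2, WT_Oxarol replicate 1 or WT_Oxarol replicate 3. With the series of library codes as a term 2 rose, Oasl1 and Apol9a, both among the 5 that passed the filter only with the help of VDRcKO_Oxarol. Calls over all genes moved as well. In this comparison 1848 genes passed in either direction, and 322 to 3433 did when each library was left out in turn. All VDRcKO_Oxarol libraries were in the second of 2 series, with only replicate 3 of each wild type group. Genotype and series therefore cannot be fully told apart.

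The oligoadenylate synthetases make a second messenger that switches on RNase L upon contact with double-stranded RNA. Of 6 tested, 3 rose in VDRcKO_Oxarol (8.71% of all genes did); Oas1g, Oas3 and Oasl1 passed the level filter only with the help of the VDRcKO_Oxarol libraries, so the count over this group is a description. Oas1a stood at 5.76, 2.74 and 2.90 FPKM in VDRcKO_Oxarol, at 1.20, 1.31 and 0.698 in WT_Oxarol, at 1.08, 1.44 and 1.05 in WT_PBS and at 0.873, 0.858 and 1.72 in WT_untreated. Its 3 VDRcKO_Oxarol values were the highest of the 12, and the difference from WT_Oxarol was 1.17 ± 0.24 (SE, n = 3 and 3; limma, adjusted p = 0.0164). Oas1g, the paralog with the similar promoter, stood at 3.31, 1.36 and 1.36 FPKM in VDRcKO_Oxarol, at 0.712, 0.656 and 0.727 in WT_Oxarol, at 0.559, 0.915 and 0.506 in WT_PBS and at 0.393, 0.474 and 0.92 in WT_untreated. The difference from WT_Oxarol was 0.77 ± 0.22 (adjusted p = 0.0468), and without VDRcKO_Oxarol replicate 1 it was 0.48 with an adjusted p of 0.10. Reads of the near-identical Oas1 paralogs may have been divided among them in a way that cannot be checked from these values.

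Oasl1, a synthetase-like protein without the enzyme activity that holds back translation of Irf7, stood at 2.17, 1.57 and 1.06 FPKM in VDRcKO_Oxarol. Its values were 0.0812, 0.453 and 0.387 in WT_Oxarol, 0.453, 0.297 and 0.209 in WT_PBS and 0.233, 0.0982 and 0.185 in WT_untreated. All 9 wild type values lay below the lowest VDRcKO_Oxarol value, and the difference from WT_Oxarol was 0.98 ± 0.17 (adjusted p = 0.00922); it passed without VDRcKO_Oxarol replicate 1 too (0.83, adjusted p = 0.0311). Oasl2, the member of this group with the highest mean, reached 4.47, 2.18 and 2.31 FPKM in VDRcKO_Oxarol, against 1.42, 1.73 and 1.14 in WT_Oxarol, 1.13, 1.63 and 1.12 in WT_PBS and 0.992, 1.14 and 2.66 in WT_untreated. WT_untreated replicate 3 was above 2 of the 3 VDRcKO_Oxarol libraries, and the difference from WT_Oxarol (0.68 ± 0.26) did not pass (adjusted p = 0.102) and was 0.42 without VDRcKO_Oxarol replicate 1. Oas1b had 1.16 ± 0.154 FPKM (SD, n = 3) against 1.45 ± 0.38 in WT_Oxarol, with overlap and no call (adjusted p = 0.351). Oas3 (0.34 ± 0.11, adjusted p = 0.0722) did not pass, and Oas2 lay between 0.156 and 1.12 FPKM over all libraries.

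The signalling factors carry the interferon signal to the promoters, and Usp18 limits it at the receptor. Each of the 5 was higher in every VDRcKO_Oxarol library than in every WT_Oxarol library, as were 27.9% of all genes. Of the 5, 3 rose (8.71% of all genes did). The count was 0 without VDRcKO_Oxarol replicate 1 or WT_Oxarol replicate 2, and 1 without VDRcKO_Oxarol replicate 2 or WT_Oxarol replicate 1. Irf7, the factor that amplifies interferon production, stood at 15.9, 10.8 and 7.48 FPKM in VDRcKO_Oxarol, at 3.83, 5.73 and 3.69 in WT_Oxarol, at 6.55, 7.83 and 4.96 in WT_PBS and at 4.0, 4.52 and 7.70 in WT_untreated. The difference from WT_Oxarol was 1.16 ± 0.28 (adjusted p = 0.0278), while the lowest VDRcKO_Oxarol value lay below the highest values of WT_PBS and WT_untreated; without VDRcKO_Oxarol replicate 1 the difference was 0.90 (adjusted p = 0.0865). Irf9, which binds DNA at the ISRE, stood at 17.6, 13.3 and 14.9 FPKM in VDRcKO_Oxarol, at 9.78, 9.51 and 11.0 in WT_Oxarol, at 11.7, 9.61 and 11.3 in WT_PBS and at 13.6, 11.8 and 13.3 in WT_untreated. Untreated ears thus overlapped with VDRcKO_Oxarol, and the difference from WT_Oxarol was 0.55 ± 0.12 (adjusted p = 0.0186; 0.44 and 0.0612 without VDRcKO_Oxarol replicate 1).

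Usp18 stood at 7.35, 6.64 and 6.23 FPKM in VDRcKO_Oxarol, at 2.62, 3.23 and 3.87 in WT_Oxarol, at 3.30, 3.18 and 3.27 in WT_PBS and at 3.43, 3.13 and 6.13 in WT_untreated. All 9 wild type values lay below the VDRcKO_Oxarol values, with WT_untreated replicate 3 just under the lowest of them. The difference from WT_Oxarol was 0.88 ± 0.19 (adjusted p = 0.0196; 0.82 and 0.0643 without VDRcKO_Oxarol replicate 1). Irf1, a transcription factor induced by interferon gamma, was above all 9 wild type libraries in all 3 VDRcKO_Oxarol libraries (11.7, 6.79 and 7.60 FPKM, against a highest wild type value of 6.07), but its difference from WT_Oxarol, 0.63 ± 0.20, did not pass (adjusted p = 0.0623; 0.42 and 0.183 without VDRcKO_Oxarol replicate 1). Stat2 differed by 0.36 ± 0.20 (adjusted p = 0.240).

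**Figure D2:**
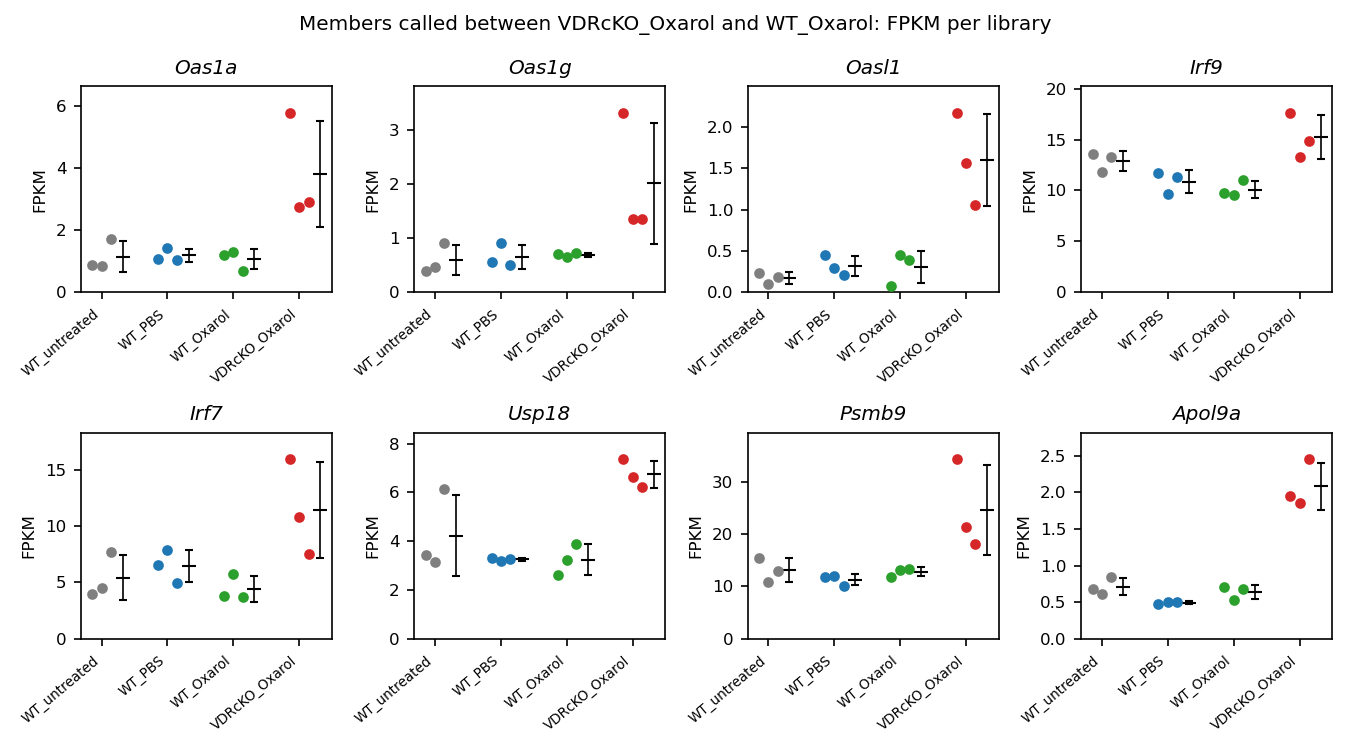
FPKM of the 8 members that rose in VDRcKO_Oxarol against WT_Oxarol, 1 panel per gene on a linear axis from 0, with a point for each library and, beside the points, each group's mean with its SD (n = 3). Oas1a, Oas1g, Oasl1, Usp18, Psmb9 and Apol9a have all 3 VDRcKO_Oxarol libraries above all 9 wild type libraries.

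The cytosolic sensors detect foreign nucleic acid. Of the 5, 0 rose against WT_Oxarol in limma, where 8.71% of all genes did (2 had an unadjusted p under 0.05), with a median change of 0.32. Eif2ak2, the kinase PKR, stood at 6.87, 7.24 and 7.35 FPKM in VDRcKO_Oxarol, 7.38, 7.37 and 6.99 in WT_Oxarol, 7.85, 7.06 and 7.32 in WT_PBS and 6.37, 7.49 and 7.62 in WT_untreated, and its promoter window held both cores. Its difference was -0.02 ± 0.09 (adjusted p = 0.919). Ifih1, the RNA sensor MDA5, stood at 5.22, 4.39 and 4.23 FPKM in VDRcKO_Oxarol, at 3.76, 3.34 and 2.97 in WT_Oxarol, at 4.21, 3.85 and 4.15 in WT_PBS and at 4.18, 3.24 and 4.69 in WT_untreated. The VDRcKO_Oxarol values lay above those of WT_Oxarol and WT_PBS and overlapped with WT_untreated, and the difference from WT_Oxarol, 0.37 ± 0.13, did not pass (adjusted p = 0.0762). Zbp1, a nucleic acid sensor that starts cell death, ranged from 0.909 FPKM in WT_untreated replicate 1 to 8.92 in VDRcKO_Oxarol replicate 1.

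Among the 11 antiviral effectors, 8 were tested and 0 rose in limma, where 8.71% of all genes did (2 had an unadjusted p under 0.05), with a median change of 0.54. Ifitm3, which blocks virus entry at membranes, was the most abundant member, at 391, 341 and 280 FPKM in VDRcKO_Oxarol, 263, 273 and 281 in WT_Oxarol, 313, 321 and 259 in WT_PBS and 308, 219 and 243 in WT_untreated. The groups overlapped, and the difference was 0.29 ± 0.15 (adjusted p = 0.204), or 0.18 without VDRcKO_Oxarol replicate 1. Bst2, the tether that holds virus particles on the cell, stood at 27.1, 17.6 and 19.5 FPKM in VDRcKO_Oxarol, at 11.4, 17.1 and 13.6 in WT_Oxarol, at 16.3, 14.7 and 13.8 in WT_PBS and at 17.7, 14.1 and 21.2 in WT_untreated. Its libraries did not overlap with WT_Oxarol or WT_PBS but did with WT_untreated, and the difference from WT_Oxarol was 0.57 ± 0.19 (adjusted p = 0.0720). Isg15, the ubiquitin-like modifier with 3 ISRE cores, stood at 23.7, 13.8 and 18.8 FPKM in VDRcKO_Oxarol and at 7.58, 15.1 and 13.0 in WT_Oxarol, with overlap, and its difference of 0.63 ± 0.31 did not pass (adjusted p = 0.181).

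Isg20, a 3′ exonuclease that degrades viral RNA, was the member with the lowest change, -0.44 ± 0.22 (adjusted p = 0.203), from 2.67, 4.57 and 3.89 FPKM in WT_Oxarol to 2.93, 1.95 and 2.47 in VDRcKO_Oxarol. By contrast, Ifit3 (14.4 ± 5.66 against 8.86 ± 2.97 FPKM, SD, n = 3), Ifit1 (4.96 ± 2.2 against 3.25 ± 1.68) and Cmpk2 (3.22 ± 1.29 against 1.71 ± 0.412) had higher means in VDRcKO_Oxarol, with none past the test. The 3 untested effectors stayed low, Mx1 between 0.141 and 1.12 FPKM, Mx2 between 0.0559 and 0.492 and Rsad2 between 0.189 and 1.55.

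The inducible GTPases attack the vacuoles of intracellular parasites. Of 4, 0 rose in limma against WT_Oxarol (8.71% of all genes did), and 3 had an unadjusted p under 0.05. The mean level of the group, as the log2 difference from its mean over 12 libraries, was 1.01 in VDRcKO_Oxarol replicate 1 but 0.11 and 0.12 in replicates 2 and 3, and 0.49 in WT_untreated replicate 3. Igtp stood at 19.5, 9.27 and 8.65 FPKM in VDRcKO_Oxarol, at 6.80, 7.46 and 7.93 in WT_Oxarol, at 6.88, 6.46 and 6.93 in WT_PBS and at 7.89, 9.97 and 15.7 in WT_untreated. Irgm1 stood at 18.2, 8.06 and 11.1 FPKM in VDRcKO_Oxarol, at 8.42, 7.67 and 7.31 in WT_Oxarol, at 7.74, 6.58 and 7.98 in WT_PBS and at 8.54, 7.28 and 9.66 in WT_untreated. Neither passed against WT_Oxarol (Igtp 0.60 ± 0.28, adjusted p = 0.169; Irgm1 0.55 ± 0.22, adjusted p = 0.121), and VDRcKO_Oxarol replicate 1 was the highest of the 12 libraries for both. Without that library both differences were 0.25 (adjusted p = 0.491 and 0.326). Gbp2 (0.92 ± 0.32, adjusted p = 0.0824) ranged from 20.3 to 7.02 FPKM within VDRcKO_Oxarol, and its difference was 0.51 (adjusted p = 0.216) without replicate 1.

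The antigen processing members cut and carry peptides for class I molecules. Psmb9, a catalytic subunit of the immunoproteasome, stood at 34.2, 21.4 and 18.0 FPKM in VDRcKO_Oxarol, at 11.8, 13.2 and 13.3 in WT_Oxarol, at 11.8, 11.9 and 10.1 in WT_PBS and at 15.4, 10.9 and 13.0 in WT_untreated. It rose by 0.84 ± 0.20 (adjusted p = 0.0254) with no overlap with any wild type library, and stood at 0.58 (adjusted p = 0.0539) without VDRcKO_Oxarol replicate 1. Psmb8, its partner subunit, stood at 60.4, 46.7 and 39.8 FPKM in VDRcKO_Oxarol, at 32.5, 32.2 and 42.6 in WT_Oxarol, at 32.0, 31.9 and 31.4 in WT_PBS and at 39.7, 33.5 and 42.4 in WT_untreated. The lowest VDRcKO_Oxarol value was under the highest WT_Oxarol value, and the difference of 0.43 ± 0.15 did not pass (adjusted p = 0.0862; 0.27 and 0.253 without VDRcKO_Oxarol replicate 1). Tap1, the peptide transporter that shares a promoter region with Psmb9, differed by 0.46 ± 0.18 (adjusted p = 0.114).

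Among the other members, Apol9a, an apolipoprotein L family gene, had the smallest p of the 35 tested, and passed the level filter only with the help of the VDRcKO_Oxarol libraries. It stood at 1.95, 1.85 and 2.45 FPKM in VDRcKO_Oxarol, at 0.708, 0.536 and 0.682 in WT_Oxarol, at 0.468, 0.504 and 0.502 in WT_PBS and at 0.679, 0.618 and 0.840 in WT_untreated. The difference from WT_Oxarol was 0.91 ± 0.10 (adjusted p = 0.00284), and here VDRcKO_Oxarol replicate 3, not replicate 1, was the highest; without replicate 1 it was 0.93 (adjusted p = 0.00903). Ifi35, a regulator of interferon signalling, stood at 37.8, 33.1 and 28.4 FPKM in VDRcKO_Oxarol, 30.3, 41.0 and 40.6 in WT_Oxarol, 31.9, 33.7 and 30.1 in WT_PBS and 35.3, 32.3 and 34.8 in WT_untreated, and differed by -0.17 ± 0.13 (adjusted p = 0.399). Xaf1 stood at 7.86, 8.09 and 8.58 FPKM in VDRcKO_Oxarol, at 7.88, 6.71 and 6.88 in WT_Oxarol, at 6.05, 6.01 and 6.63 in WT_PBS and at 6.71, 6.40 and 6.99 in WT_untreated. It did not pass against WT_Oxarol (0.17 ± 0.09, adjusted p = 0.193). Ifi44 lay between 0.0602 and 0.735 FPKM and Parp14 between 0.580 and 1.83.

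**Figure D3:**
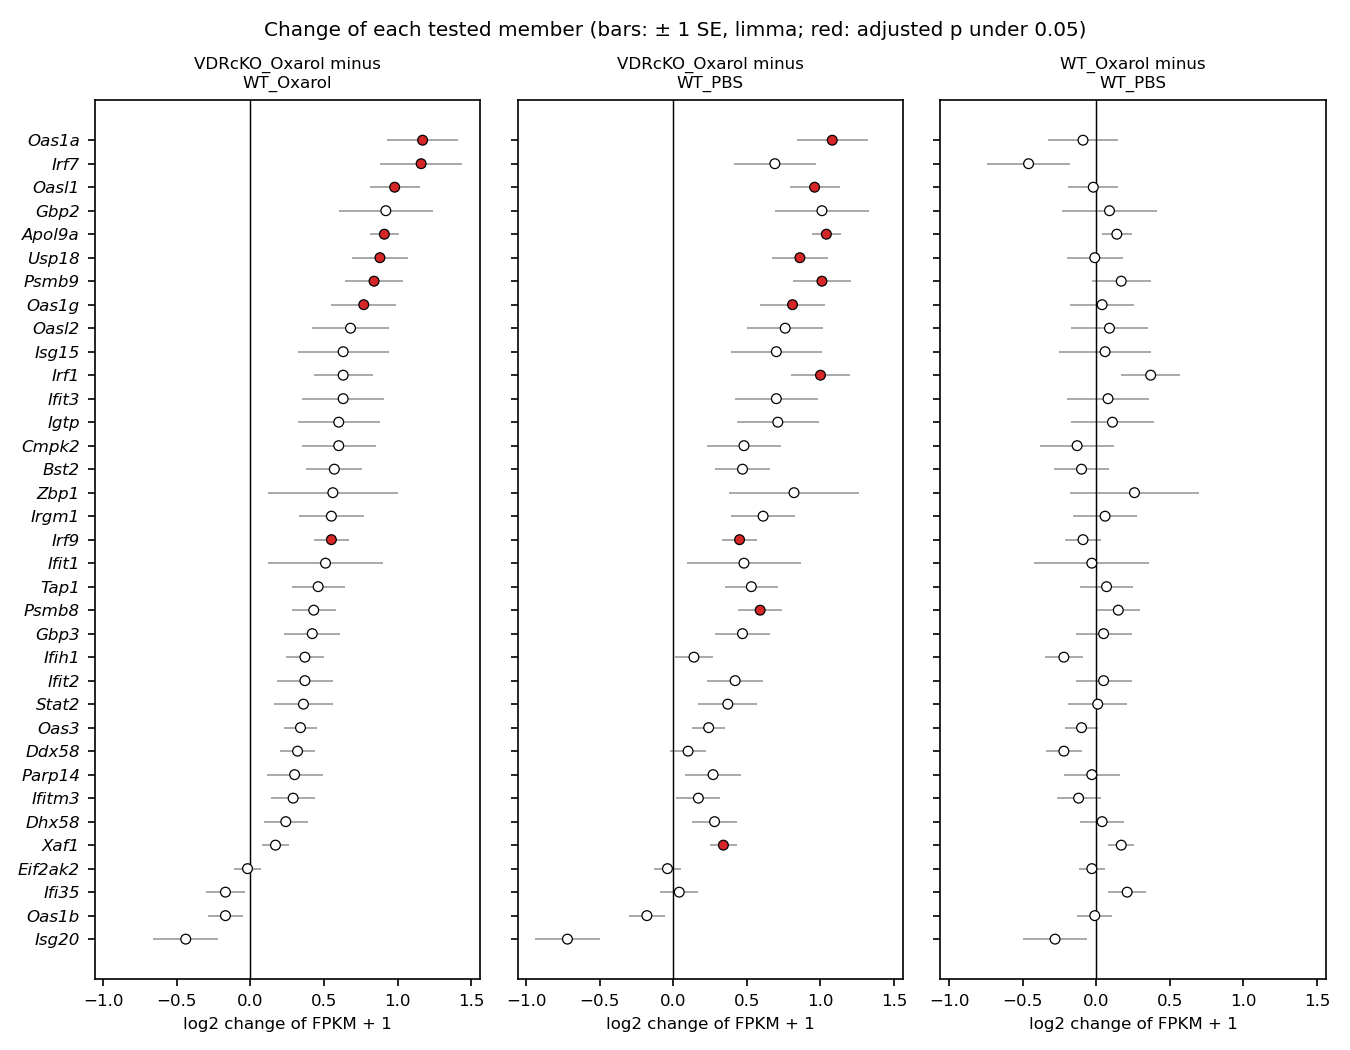
Difference in log2(FPKM + 1) with its standard error for each of the 35 tested members, in 3 panels: VDRcKO_Oxarol minus WT_Oxarol, VDRcKO_Oxarol minus WT_PBS, and WT_Oxarol minus WT_PBS. The panels have 31, 32 and 19 members above 0 in that order, and no member passed in the last.

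In wild type ears, the ointment did not move these genes beyond the spread between libraries. Between WT_Oxarol and WT_PBS 0 of the 35 members passed in limma (0.249% of all genes rose and 0.0569% fell, 0.306% together), and 0 had an unadjusted p under 0.05. The changes ran from -0.46 ± 0.28 for Irf7 to 0.37 ± 0.20 for Irf1, with 19 above 0, against 52.1% of all genes, and a median of 0.04, against 0.01 over all genes. All WT_Oxarol libraries lay above all WT_PBS libraries for Psmb8, Xaf1 and Apol9a, and below for Ifih1, against 7.53% and 8.36% of all genes. Between WT_PBS and WT_untreated 0 members passed in limma (0.00711% of genes), 0 had an unadjusted p under 0.05, 13 lay above 0 (50.7% of genes), and the median was -0.09. Of the 35, none had all WT_PBS libraries above WT_untreated (5.6% of genes), and 4 had all below (7.43%). Mx1, not tested for its low level, had all above, at 1.12, 0.688 and 0.404 FPKM against 0.247, 0.334 and 0.396. Igtp had the lowest change, -0.60 ± 0.28 (adjusted p = 0.540), with WT_PBS below WT_untreated in every library; without WT_untreated replicate 3 it was -0.35 (adjusted p = 0.662). Between WT_Oxarol and WT_untreated 0 members passed in limma (0.989% of genes rose and 0.32% fell, 1.31% together), with 2 at an unadjusted p under 0.05 (Irf9 and Ddx58, both at lower values in every WT_Oxarol library). In that comparison 11 lay above 0 (49.6% of genes), 0 had all libraries above (8.97%) and 2 all below (9.85%). A p that misses the threshold does not show that the levels were the same.

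VDRcKO_Oxarol was set against the other wild type groups too; these comparisons share the VDRcKO_Oxarol libraries with the one above, so their results are not separate evidence. Against WT_PBS 10 members rose and 0 fell, where 10.8% of all genes rose and 5.49% fell, with a median change of 0.48 and 32 above 0, against 60.3% of all genes. The libraries did not overlap for 22 in the higher direction, against 31.0% of genes, and for 2, Oas1b and Isg20, in the lower, against 16.4%. Of the 30 members that passed the level filter in wild type alone, 7 rose, against 10.2% of such genes. Among these, 19 had no overlap in the higher direction, against 30.4%. Apol9a differed by 1.04 ± 0.10 (adjusted p = 0.000788), Oas1a by 1.08 ± 0.24 (0.0167), Psmb9 by 1.01 ± 0.20 (0.0114), Irf1 by 1.00 ± 0.20 (0.0125) and Oasl1 by 0.96 ± 0.17 (0.00688). The other 5 were Usp18, Oas1g, Psmb8, Irf9 and Xaf1, with changes from 0.34 to 0.86. Irf1, Psmb8 and Xaf1 passed here and not against WT_Oxarol; whether the 2 comparisons differ for them is the comparison of WT_Oxarol with WT_PBS, in which none passed. The count was 5 without VDRcKO_Oxarol replicate 1 (Apol9a, Oas1a, Psmb9, Irf1 and Oasl1), 3 without WT_PBS replicate 1, 4 without WT_PBS replicate 2 and 15 without WT_untreated replicate 3.

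Against WT_untreated, 7 members rose (12.8% of all genes did) and 1 fell (6.2% did). The change was above 0 for 32 (58.8% of genes), 10 had no overlap in the higher direction (24.4%) and 1 in the lower (13.5%). Of the 30 members that passed the level filter in wild type alone, 4 rose, against 12.3% of such genes. Among these, 6 had no overlap in the higher direction, against 23.9%. The counts that rose or had no overlap were thus near the shares of all genes. The count of 8 was 4 or 5 without VDRcKO_Oxarol replicate 1 or 2, WT_PBS replicate 1 or WT_untreated replicate 1 or 2, and 12 without WT_untreated replicate 3. Oas1a (1.13 ± 0.24, adjusted p = 0.0126), Oasl1 (1.13 ± 0.17, 0.00355), Irf7 (0.94 ± 0.28, 0.0424), Oas1g (0.87 ± 0.22, 0.0242), Apol9a (0.85 ± 0.10, 0.00183), Psmb9 (0.82 ± 0.20, 0.0209) and Usp18 (0.61 ± 0.19, 0.0468) were the ones that rose. Isg20 fell by 0.79 on the log2 scale (SE 0.22, adjusted p = 0.0348), from 4.36, 3.60 and 7.48 FPKM untreated. Without VDRcKO_Oxarol replicate 1 the calls of Irf7 (adjusted p = 0.134), Usp18 (0.127) and Isg20 (0.0565) were lost, and without WT_untreated replicate 3 the Isg20 difference was -0.54 (adjusted p = 0.0666). Over all alternatives run, Usp18 lost its call in 18 of 22, Irf7 in 13 of 22 and Isg20 in 10 of 21. Zbp1, named after its value was seen, had the largest difference of the 35 members tested, 1.30 ± 0.44, but its libraries overlapped and it did not pass (adjusted p = 0.0601). Over the 3 wild type groups together, all VDRcKO_Oxarol libraries exceeded all 9 wild type libraries for 7 of the 40 members (Oas1a, Oas1g, Oasl1, Irf1, Usp18, Psmb9 and Apol9a), against 15.0% of all genes tested, and lay below all of them for none, against 6.34%. The count of 7 is near the share of all genes, and 5 of the 40 members were not tested. Oas1g, Oasl1 and Apol9a passed the level filter only with the help of the VDRcKO_Oxarol libraries, so the count is a description.

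**Figure D4:**
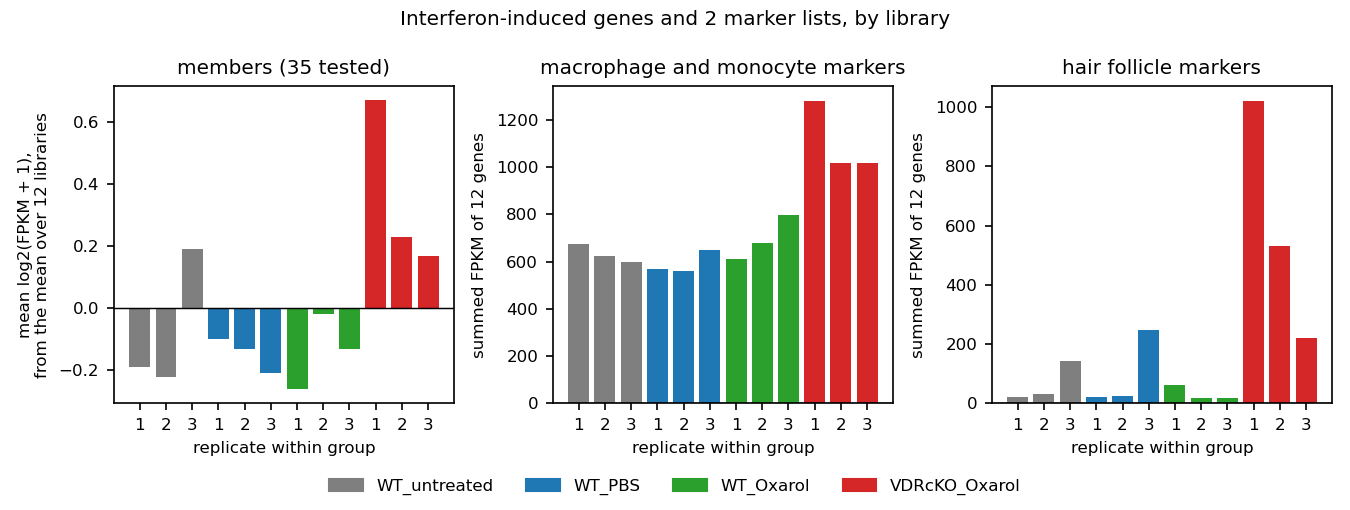
For each of the 12 libraries, the mean level of the 35 tested members (difference in log2(FPKM + 1) from the mean over libraries) and the summed FPKM of macrophage and of hair follicle markers. VDRcKO_Oxarol replicate 1 is the highest in all 3 panels, at 0.67, 1280 FPKM and 1020 FPKM.

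The mean level of the 35 tested members was 0.67, 0.23 and 0.17 above the mean over libraries in VDRcKO_Oxarol, and -0.26, -0.02 and -0.13 in WT_Oxarol. It includes the 5 members that passed the level filter only with the help of the VDRcKO_Oxarol libraries. WT_untreated replicate 3, at 0.19, lay above VDRcKO_Oxarol replicate 3, so the groups overlapped on this measure. Markers of some other cell types were also higher in VDRcKO_Oxarol. In whole skin, more cells of a type and more RNA per cell cannot be told apart. All 12 macrophage and monocyte markers were above 0 in change against WT_Oxarol and 7 rose (8.71% of all genes did), with summed levels of 1020 to 1280 FPKM in VDRcKO_Oxarol, 610 to 797 in WT_Oxarol, 561 to 650 in WT_PBS and 600 to 676 in WT_untreated. Of 12 hair follicle markers 10 rose, with sums of 219 to 1020 FPKM in VDRcKO_Oxarol and 18.1 to 60.9 in WT_Oxarol. Krt35, Krt85 and Padi3 passed the level filter only with the help of the VDRcKO_Oxarol libraries, so this count is a description. In the hair follicle sum, WT_untreated replicate 3 (144) and WT_PBS replicate 3 (247) were the highest of their groups. Within wild type the order was mixed: WT_untreated replicate 3, the highest of its group in member level (0.19), had the lowest macrophage sum of its group (600), and WT_PBS replicate 3 had the lowest member level of its group (-0.21). The macrophage sum is weighted to abundant genes such as Lyz2, and single markers went both ways. In WT_untreated replicate 3, Cd68 (44.9 FPKM) was the lowest of WT_untreated, while Cd163 (10.3) and Mertk (1.99) were the highest. Of 7 fibroblast markers 4 rose, of 6 tested T and NK cell markers 3, of 7 endothelial markers 1 and of 9 Langerhans and dendritic cell markers 1, where 8.71% of all genes did. The endothelial count and the Langerhans and dendritic cell count are near that share. Of 5 tested neutrophil markers 0 rose (0 with an unadjusted p under 0.05) and of 9 keratinocyte markers 0 (3), and of 5 tested markers of plasmacytoid dendritic cells, the main interferon producers, none rose and 2 fell (Ccr9 and Ly6d). Without VDRcKO_Oxarol replicate 1, 3 macrophage, 1 hair follicle and 0 T and NK cell markers rose, and without WT_Oxarol replicate 2 these counts were 3, 1 and 0 as well. The calls of the endothelial, Langerhans and dendritic cell and plasmacytoid markers were lost with the one and with the other of these libraries left out, and the fibroblast count was 5 without the first and 1 without the second. The plasmacytoid list's sum was set by Ly6d, which keratinocytes express too. Siglech lay between 0.906 and 1.63 FPKM and Ccr9 between 0.540 and 1.67. Tcf4 (18.7 to 27.7) and Cox6a2 (77.6 to 288) stood far above Siglech and Ccr9. The list therefore may not report plasmacytoid cells in whole skin. The part of these cell types in the members' change was not tested.

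The interferons themselves had low values. Of 18 ligand genes none reached 1 FPKM in any library, and 6 (Ifna4, Ifna14, Ifnb1, Ifne, Il28a and Il28b) were listed at 0 in all 12. Ifnk, the keratinocyte interferon, lay between 0 and 0.577 FPKM, at 0, 0.544 and 0.439 in VDRcKO_Oxarol and 0.337, 0.123 and 0.401 in WT_Oxarol. Ifnz lay between 0.0728 and 0.184 FPKM in all libraries, with no order by group. Ifng was above 0 in 5 libraries, at 0.0518, 0.0754 and 0.123 FPKM in WT_Oxarol, 0.0709 in WT_PBS replicate 2 and 0.167 in VDRcKO_Oxarol replicate 2. The other 9 with any value (Ifna1, Ifna2, Ifna5, Ifna6, Ifna9, Ifna11, Ifna12, Ifna13 and Ifnab) reached 0.102 FPKM at most, and all 9 were listed at 0 in all VDRcKO_Oxarol libraries, the shallowest of the 12. A listed 0 at this depth does not show that a ligand was absent.

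Among 9 receptor and kinase genes, 2 rose in VDRcKO_Oxarol against WT_Oxarol and none fell (8.71% of all genes rose). Il10rb, a chain of the type III interferon receptor that interleukin-10 receptors share, stood at 36.7, 33.2 and 34.3 FPKM against 26.8, 24.2 and 22.9 (0.48 ± 0.08, adjusted p = 0.00957). Tyk2 stood at 5.74, 4.71 and 4.97 FPKM against 2.88, 3.34 and 2.96 (0.59 ± 0.17, adjusted p = 0.0433; 0.127 without VDRcKO_Oxarol replicate 1). Ifnar1, a chain of the type I receptor, had 14.4 ± 0.331 FPKM (SD, n = 3) in VDRcKO_Oxarol and 14.1 ± 0.939 in WT_Oxarol, and Ifnar2, the other chain, 13.7 ± 0.434 and 10.6 ± 2.1 (adjusted p = 0.0819). Among 14 tested genes of nucleic acid sensing 1 rose, Irf8 (0.51 ± 0.15, adjusted p = 0.0476), a factor that macrophages and dendritic cells express, and its call was lost in 19 of 21 alternatives. Of 10 negative regulators 1 rose, the phosphatase Ptpn6 (0.42 ± 0.09, adjusted p = 0.0194; 0.0641 without VDRcKO_Oxarol replicate 1), which blood cells express.

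Of 31 tested interferon-induced genes outside the 40 members, 7 rose and none fell (8.71% and 4.43% of all genes), and 28 lay above 0 (60.0%), at a median difference of 0.44 (0.08 over all genes). Lgals3bp, a secreted galectin-binding protein, stood at 26.5, 27.3 and 20.7 FPKM in VDRcKO_Oxarol against 9.47, 13.6 and 13.9 in WT_Oxarol (0.96 ± 0.18, adjusted p = 0.0142). Parp9 (0.68 ± 0.16, adjusted p = 0.0227), Sp100 (0.62 ± 0.13, 0.0172) and Tdrd7 (0.54 ± 0.10, 0.0145) rose too. Without VDRcKO_Oxarol replicate 1 these last 3 did not pass (adjusted p = 0.0742, 0.0549 and 0.0511) and 1 of the 31 rose; 2 rose without WT_Oxarol replicate 2, 3 without VDRcKO_Oxarol replicate 2, 4 without WT_Oxarol replicate 3 and 11 without WT_untreated replicate 3. Of 4 tested interferon-induced chemokines 0 rose in limma (1 had an unadjusted p under 0.05); Cxcl10, which draws T cells, stood at 4.43, 1.87 and 1.06 FPKM in VDRcKO_Oxarol against 0.869, 0.759 and 0.276 in WT_Oxarol (0.98 ± 0.33, adjusted p = 0.0718; 0.59 and 0.198 without VDRcKO_Oxarol replicate 1).

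Class I antigen presentation outside the members had 4 of 13 genes that rose and none that fell (8.71% and 4.43% of all genes; 2 rose without VDRcKO_Oxarol replicate 2 or WT_Oxarol replicate 2). H2-K1, a class I heavy chain, stood at 267, 258 and 256 FPKM in VDRcKO_Oxarol, at 120, 106 and 141 in WT_Oxarol, at 145, 121 and 142 in WT_PBS and at 159, 145 and 201 in WT_untreated. B2m, the light chain of every class I molecule, stood at 1220, 1030 and 1060 FPKM in VDRcKO_Oxarol, at 493, 513 and 612 in WT_Oxarol, at 548, 473 and 539 in WT_PBS and at 828, 539 and 740 in WT_untreated. In both genes the 3 VDRcKO_Oxarol libraries were close to each other and above all 9 wild type libraries, and the differences from WT_Oxarol were 1.10 ± 0.14 (adjusted p = 0.00349) and 1.04 ± 0.16 (0.00726). Nlrc5, the transactivator of class I genes, had 3.23 ± 0.323 FPKM (SD, n = 3) against 1.36 ± 0.243, a difference of 0.84 ± 0.16 (adjusted p = 0.0145), and H2-D1 differed by 0.61 ± 0.14 (adjusted p = 0.0235; 0.0779 without VDRcKO_Oxarol replicate 1). Class I heavy chains are near-identical in sequence, and reads may have been shared among them.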

How the data were processed

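RNA of mouse ear skin was sequenced in 12 libraries, 3 per group, and per the labels' protocols the NEBNext Ultra kit was used. Cufflinks 2.1.1, TopHat2 2.0.8 and Bowtie2 2.1.0 are named, with build mm9, in the submitters' processing notes. Each deposited table gives 1 value per symbol; the headers name no unit, and the values were taken as FPKM, made by the authors with Cufflinks, from their range. No read counts were used and strandedness is not given in the sources used here.

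From these values log2(FPKM + 1) was computed. The 14059 of 23234 genes that reached 1 FPKM in 3 or more of 12 libraries were fitted with limma 3.58.1 (R 4.3.3) as 4 group means with a variance trend and 8 residual degrees of freedom; 6 comparisons were each adjusted by Benjamini-Hochberg at 0.05. The labels do not say that libraries of a group came from separate mice, so p-values measure only how these samples vary, and that variation may be technical. The fit was tested on simulated data, at an adjusted p under 0.05. In each simulation 200 genes were changed, and noise was drawn separately for every gene and library. There 6.81% of the calls between VDRcKO_Oxarol and WT_Oxarol were false, and 5.43% of those between WT_Oxarol and WT_PBS, slightly above the rate aimed at. Shifts of a whole library, such as that of VDRcKO_Oxarol replicate 1, were not simulated, so these rates do not cover them. Promoter windows are of GRCm38.p6, not mm9, and coordinates are given in that build only. Read numbers rest on low values being whole multiples of a step (tolerance 0.1 read); a common multiple for a library cannot be told. Library codes form a first series (2 libraries of each wild type group) and a second (replicate 3 of each wild type group and all VDRcKO_Oxarol libraries). Genotype and series therefore cannot be fully told apart, and the labels do not say whether the series are batches.

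The members and lists were chosen with earlier results of these data known. Values per library are printed in full for members that rose or fell against WT_Oxarol, or between WT_Oxarol and WT_PBS, and for the 2 members with the highest mean of each role. Library values of some groups are also printed for Irf1, Isg15, Isg20 and Mx1, which this rule does not take in. The lists name up to 4 genes by adjusted p, the ligands above 0, Ifnar1 and Ifnar2. One gene of the receptor and kinase list is not reported here. Alternatives were quantile normalization, a pseudocount of 0.1, median-of-ratios scaling, a filter of 5 FPKM, no filter, a robust variance, library series as a term, only the 2 groups compared, and each library left out in turn. Chosen after seeing the data were VDRcKO_Oxarol replicate 1 with WT_untreated replicate 3 left out, and WT_untreated replicate 3 with WT_PBS replicate 3 left out. Figures used Python 3.11.15 and matplotlib 3.10.9.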

Additional observations from a re-analysis of the deposited data

How the results depend on the processing

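Against WT_Oxarol 8 members rose; the count was 4 with a filter of 5 FPKM, 2 with library series as a term, 4 with VDRcKO_Oxarol replicate 1 and WT_untreated replicate 3 left out, and 3 to 9 when each library was left out. It was 3 without VDRcKO_Oxarol replicate 1 or WT_Oxarol replicate 2, 4 without VDRcKO_Oxarol replicate 2 or WT_Oxarol replicate 1, and 5 without WT_Oxarol replicate 3. Over all genes 1848 passed in either direction, 322 to 3433 when each library was left out, and at least 283 under every alternative. Oasl1 and Apol9a kept their call in all 21 alternatives that tested them, Oas1a in all but the library series as a term, Irf9 lost it in 4, Usp18 in 5, Irf7 and Psmb9 in 7 and Oas1g in 18. Oasl1, Apol9a and Oas1g passed the level filter only with the help of the VDRcKO_Oxarol libraries. With library series fitted, no member that passed that filter in wild type alone rose. The median change of 0.55 was 0.30 without VDRcKO_Oxarol replicate 1, alone or with WT_untreated replicate 3, and 0.39 with library series fitted.

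Against WT_PBS 10 members passed: 6 with a filter of 5 FPKM, 3 with library series fitted, and 3 to 15 when each library was left out (5 without VDRcKO_Oxarol replicate 1, 3 without WT_PBS replicate 1, 4 without WT_PBS replicate 2, 15 without WT_untreated replicate 3). Against WT_untreated 8 passed: 2 with a filter of 5 FPKM, 4 with the library series as a term, 5 with no filter, 2 with only the 2 groups compared, and 4 to 12 when each library was left out (12 without WT_untreated replicate 3). Over all genes 2286 passed against WT_PBS, and 543 to 3875 when each library was left out. Against WT_untreated 2668 of all genes passed, and 1168 to 2896 when each library was left out. In the wild type comparisons the count of members was 0 under all 23 alternatives. The causes were not tested, except that the filter of 5 FPKM leaves fewer members.

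Quantile normalization moved the median of all genes against WT_Oxarol from 0.08 to -0.04 and the genes that rose and fell from 1225 and 623 to 820 and 1292 (819 and 1149 with median-of-ratios scaling); 7 members rose and 0 fell under each, with medians of 0.40 and 0.46. The mean member level of WT_PBS replicate 2 moved from -0.13 to -0.20 with a filter of 5 FPKM and to -0.03 with quantile normalization, and that of WT_PBS replicate 3 from -0.21 to -0.27 with a pseudocount of 0.1 and to -0.27 with quantile normalization. No paired analysis was possible because the labels carry no replicate numbers: those used here only name libraries in accession order. Depth limits the low members most, with as few as 2 reads for Mx2 in a library.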
